A study of Homo sapiens with 24 samples.

Results

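Cell cycle and DNA replication genes were followed in HepG2 cells, a human line established from a liver cancer. A list of 40 genes was matched by Entrez ID to the count table, and 40 of 40 were present among its 12009 gene IDs. The list was divided into 15 S-phase members, which serve DNA replication, and 25 mitotic members, which serve chromosome condensation, spindle assembly and cell division. Every member passed the filter on low counts. The list goes by gene names and uses no measured value as a criterion.

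The cells carried a lentiviral CRISPR-Cas9 construct with 1 of 3 guide RNAs and had been selected with puromycin; no cloning step was described, so each line is taken as a selected population. The control guide sgCtrl cuts the AAVS1 safe-harbour site, so that the control cells carried vector and nuclease too. KEAP1 was targeted by either of the guides sgKEAP1-1 and sgKEAP1-2; its product is the adaptor through which a ubiquitin ligase reaches the transcription factor NRF2. Each line was transfected with non-targeting siRNA (siNC) or with siTFEB/siTFE3, a mix of siRNA pools that lower TFEB and TFE3, the transcripts of 2 factors that activate lysosomal genes, and RNA was taken 72 h later. The 6 groups of guide and siRNA held 4 libraries each, 24 in all. The labels do not say that the libraries of a group came from separate cultures, so p-values measure the spread between these libraries, which may be technical.

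Libraries were made by QuantSeq, which reads the 3′ end of each polyadenylated transcript, and held 3527000 to 4600951 reads. Levels are given as CPM, read counts scaled to 1e6 reads of a library whose size was corrected by TMM factors between 0.947 and 1.04. Changes are log2 fold changes of a limma-voom fit over all 11152 genes that passed the filter, and a gene was called at a Benjamini-Hochberg adjusted p below 0.05. KEAP1 RNA was at 84.9 ± 6.69 CPM (SD, n = 4) in the siNC sgCtrl group, 53.8 ± 6.17 with sgKEAP1-1 and 77.4 ± 3.89 with sgKEAP1-2. It was lower with sgKEAP1-1 (log2 fold change -0.66, adjusted p = 0.000102) but was not called with sgKEAP1-2 (-0.14, adjusted p = 0.448), and a 3′ read count does not measure whether a cut reading frame was lost. TFEB fell by 1.92 and TFE3 fell by 1.67 on the log2 scale with the siRNAs, averaged over the guides. In sgCtrl cells alone their values were -1.57 and -1.96 and only 1 of them was called, whereas both were called with each KEAP1 guide. Libraries numbered 1 had the highest level of most members in their groups, and the siTFEB/siTFE3 sgKEAP1-2 library numbered 1 stood apart from its group, so results are also given without them. Of the 9 hepatocyte markers all were measured, with ALB between 3578 and 12200 CPM, while PTPRC, CD3E, PECAM1, CDH5 and VWF, markers of leukocytes and endothelium, have no row in the table. LYZ, the remaining leukocyte marker, was at 944 to 2813 CPM and was lower with the KEAP1 guides on average (-0.46, adjusted p = 0.00215).

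A dividing cell passes from G1 through DNA replication in S phase to G2 and mitosis, and transcripts of the members rise and fall with that passage. E2F factors, released when cyclin-dependent kinases phosphorylate the RB family, drive S-phase genes through E2F motifs. The MuvB complex, with B-MYB and FOXM1 or as the repressive DREAM complex, acts on mitotic genes through CHR elements that often lie beside CCAAT boxes. In resting hepatocytes most of these genes are low, whereas HepG2 cells proliferate in culture. In bulk RNA, a smaller share of cells in a phase and less RNA per cell cannot be told apart.

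The promoters of 4 members are printed to show the motifs named above in members that were lower with the KEAP1 guides. They are the 2 S-phase members with an E2F-type motif and the 2 mitotic members with a CHR-type motif that had the smallest p in the averaged KEAP1 comparison, so these motifs are present by choice. Windows from RefSeq (GRCh38.p14) reach from 250 bases before to 50 bases after a transcription start. They matched 32 of the 40 members, 12 S-phase and 20 mitotic. CDT1 lies at chr16:88803539-88803838, TYMS at chr18:657403-657702, CCNB2 at chr15:59104896-59105195 and CDK1 at chr10:60778081-60778380, each on the plus strand. Capitals mark E2F-type motifs (TTTCCCGC, TTTCGCGC, TTTGCCGC or TTTGGCGC), CHR-type motifs (TTTGAA or TTTAAA) and CCAAT, each on either strand.
CDT1: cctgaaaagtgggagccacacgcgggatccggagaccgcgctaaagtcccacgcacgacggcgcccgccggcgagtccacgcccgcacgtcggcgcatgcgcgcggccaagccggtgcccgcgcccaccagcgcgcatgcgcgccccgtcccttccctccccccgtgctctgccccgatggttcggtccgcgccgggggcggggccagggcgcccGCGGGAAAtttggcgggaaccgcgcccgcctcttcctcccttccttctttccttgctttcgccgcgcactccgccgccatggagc
TYMS: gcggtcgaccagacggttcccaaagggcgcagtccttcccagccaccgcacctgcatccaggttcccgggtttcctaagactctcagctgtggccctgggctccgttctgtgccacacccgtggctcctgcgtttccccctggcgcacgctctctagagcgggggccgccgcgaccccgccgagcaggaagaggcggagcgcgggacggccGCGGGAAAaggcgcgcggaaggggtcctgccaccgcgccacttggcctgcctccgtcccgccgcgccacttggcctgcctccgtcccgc
CCNB2: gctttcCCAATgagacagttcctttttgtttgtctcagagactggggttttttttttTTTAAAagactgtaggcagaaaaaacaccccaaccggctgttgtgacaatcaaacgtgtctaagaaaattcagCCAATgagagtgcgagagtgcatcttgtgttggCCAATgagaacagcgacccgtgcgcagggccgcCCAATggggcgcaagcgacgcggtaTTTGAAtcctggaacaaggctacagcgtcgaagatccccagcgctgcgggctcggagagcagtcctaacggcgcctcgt
CDK1: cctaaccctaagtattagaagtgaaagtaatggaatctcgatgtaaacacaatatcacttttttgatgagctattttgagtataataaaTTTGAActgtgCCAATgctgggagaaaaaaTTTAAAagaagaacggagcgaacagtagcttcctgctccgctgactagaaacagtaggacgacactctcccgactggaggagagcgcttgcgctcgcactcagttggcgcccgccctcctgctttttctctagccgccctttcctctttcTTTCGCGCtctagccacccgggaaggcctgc

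In both S-phase promoters the E2F-type motif is the reverse complement GCGGGAAA, with no match of the other kinds. The window of CCNB2 holds 2 CHR-type motifs and 4 copies of CCAAT, and the printed window of CDK1 carries both CHR-type motifs, 1 CCAAT and 1 E2F-type motif. Of the 2 CDK1 windows with a CHR-type motif, that with the lower start coordinate is printed. In the shares that follow, a gene was counted where any of its windows held the motif. Over the S-phase members an E2F-type motif was present in 10 of 12 (83.3%), against 2 of 20 mitotic members (10.0%) and 3.99% of the 27305 genes of the promoter table. A CHR-type motif was present in 17 of 20 mitotic members (85.0%) and 2 of 12 S-phase members (16.7%), against 27.9% of all genes. CCAAT was present in 85.0% of the mitotic and 75.0% of the S-phase members, against 39.7% of all genes. The antioxidant-response-type letters TGACNNNGC were found in 4 of 12 S-phase and 5 of 20 mitotic members and in 16.1% of all genes. The E-box CACGTG, also the core of sites bound by TFEB and TFE3, was found in 3 of 12 and 4 of 20, against 8.77% of all genes. A match is a description of these letters and not a measured binding site.

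The members were lower in KEAP1-guide cells. Averaged over both guides and both siRNAs, 37 of 40 were called as lower and 0 as higher, where 15.6% of all genes tested were called as lower and 15.2% as higher. The median log2 fold change was -0.58, a ratio of 0.669 to sgCtrl, beside a median of all genes of -0.00477. The 25 mitotic members had a median of -0.62 (ratio 0.652), with 24 called, and the 15 S-phase members a median of -0.51 (ratio 0.702), with 13 called. The largest fall was that of KIF20A (-0.89 ± 0.14, SE), and CCNE2 was the one member with a positive value (0.18 ± 0.27). MKI67 (-0.38, adjusted p = 0.0886) and MCM5 (-0.45, adjusted p = 0.0512) were below 0 without passing the threshold. Hepatocyte markers moved with the same groups: 6 of 9 were lower in this comparison, among them ALB (-1.18) and AFP (-1.89). Their summed level was 23760 to 35298 CPM in the siNC sgCtrl libraries, 16972 to 18585 with sgKEAP1-1 and 16428 to 18045 with sgKEAP1-2. With siTFEB/siTFE3 it was 21772 to 31118, 15279 to 17466 and 13488 to 15534 in the same order, no marker was at 0, and their part in the member results was not tested.

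**Figure D1:**
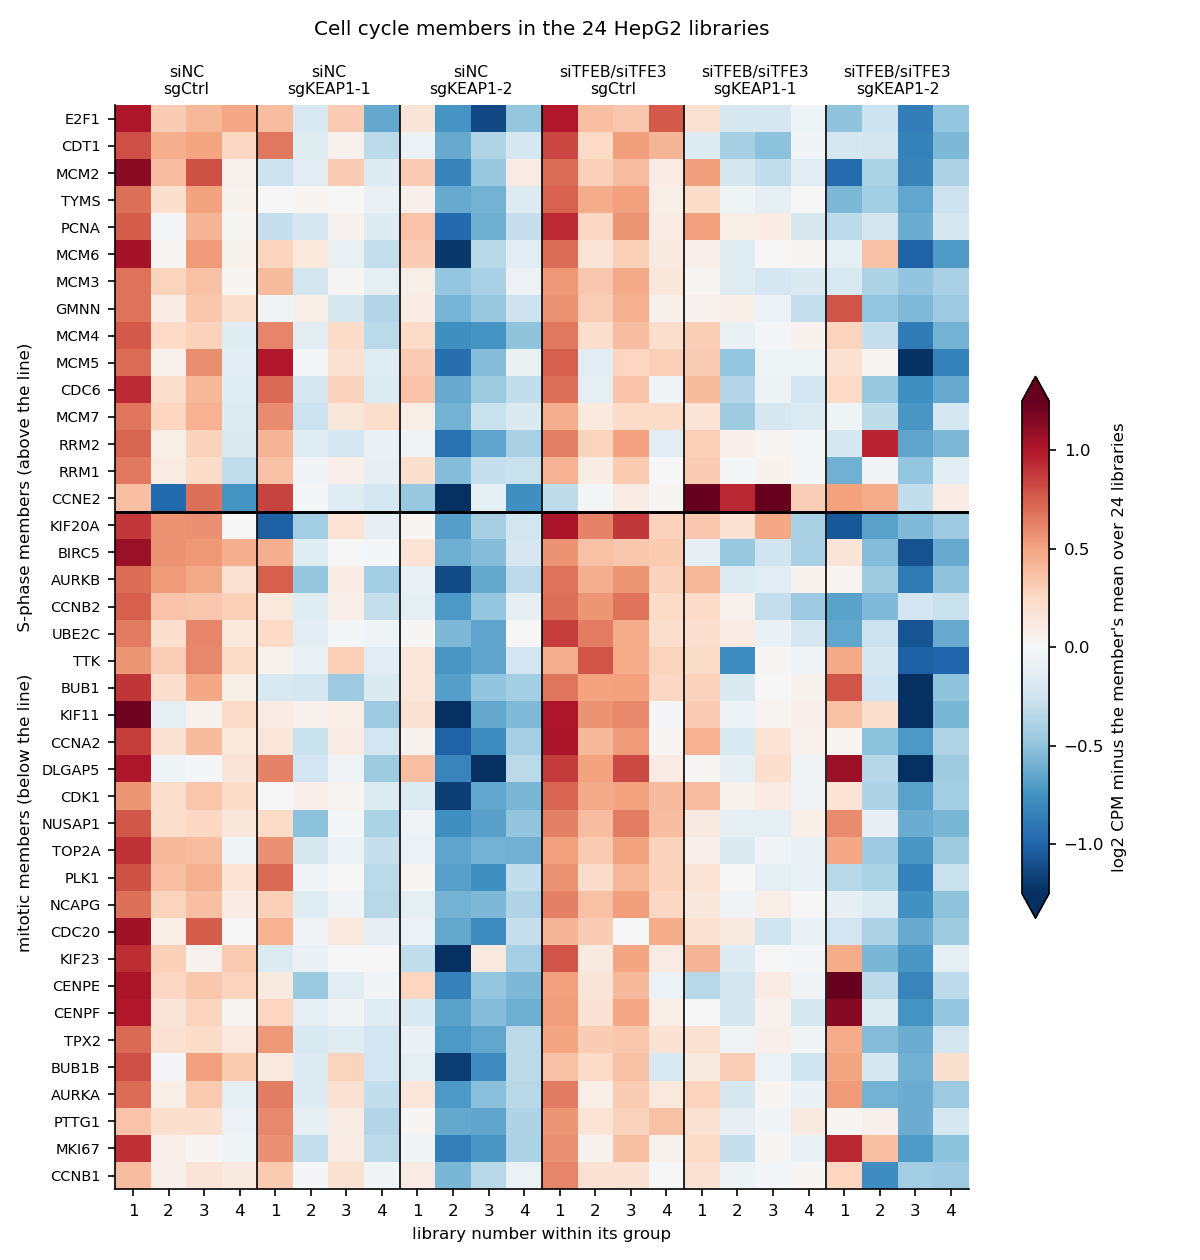
Level of the 40 members (rows, S-phase above the line and mitotic below, ordered by log2 fold change) in the 24 libraries (columns, 4 per group), as log2 CPM minus the member's mean over all libraries. Red cells, above the mean, fill most of the sgCtrl columns under both siRNAs, and blue cells fill most sgKEAP1-2 columns; the column numbered 1 is the reddest of its group in most rows.

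Separate guides gave unequal counts. Under siNC, 2 of 40 members (BIRC5 and KIF20A) were called as lower with sgKEAP1-1, a number near the share of all genes (4.91%). With sgKEAP1-2 under siNC, 29 were, where 7.14% of all genes were. Under siTFEB/siTFE3, 6 members were called as lower with sgKEAP1-1 (CCNB2, BIRC5, UBE2C, MCM3, CDT1 and E2F1; 4.81% of all genes) and 27 with sgKEAP1-2 (9.59% of all genes). In these 4 comparisons limma-voom called 0 members as higher, and 1 value above 0 had an unadjusted p below 0.05, that of CCNE2 with sgKEAP1-1 under siTFEB/siTFE3 (0.95). The 29 comprised 20 mitotic and 9 S-phase members and the 27 comprised 18 and 9, and 24 members were in both. Both siNC comparisons use the same sgCtrl libraries, as do both siTFEB/siTFE3 comparisons. BIRC5 was the single member called in all 4, and 8 members were called in none of them: CCNE2, CDC6, MCM5, MCM6, RRM2, AURKA, DLGAP5 and MKI67. Without the 6 libraries numbered 1 the counts were 12 and 36 under siNC, 17 and 35 under siTFEB/siTFE3, in the order sgKEAP1-1 and sgKEAP1-2, and 38 in the average. Lower calls over all genes rose as well under that setting, from 548 to 768, 796 to 1026, 536 to 821 and 1069 to 1280 in the 4 comparisons and from 1745 to 2029 in the average, of 11185 genes then tested. With library number added to the fit, more members were called with sgKEAP1-1 under either siRNA. Lower calls over all genes with sgKEAP1-1 were then 668 under siNC and 644 under siTFEB/siTFE3. Single libraries moved the member counts as well. The 2 with sgKEAP1-1 under siNC became 0 without siNC sgCtrl 1, 2 or 3 or sgKEAP1-1 2, 1 without siNC sgKEAP1-1 3 or 4, siNC sgKEAP1-2 4 or siTFEB/siTFE3 sgCtrl 3, 4 without siNC sgCtrl 4, 7 without siTFEB/siTFE3 sgKEAP1-2 1 and 10 without siNC sgKEAP1-1 1. Lower calls over all genes were 505, 427, 380 and 401 in the fits that gave 0, in the order listed, against 548. They were 390, 422, 503 and 513 in the fits that gave 1, and 427, 650 and 554 in those that gave 4, 7 and 10. These fits tested 11265 to 11298 genes. The 29 with sgKEAP1-2 under siNC became 17 without siNC sgCtrl 1 or sgKEAP1-2 2 and 18 without siNC sgKEAP1-2 3, and the 6 with sgKEAP1-1 under siTFEB/siTFE3 became 3 without sgCtrl 1 or sgKEAP1-1 2 or 3 of that siRNA. In the same order, lower calls over all genes were 632, 522 and 534, against 796, and then 471, 339 and 349, against 536.

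Single libraries overlapped less with sgKEAP1-2. All 4 libraries lay below every sgCtrl library for 7 of 40 members with sgKEAP1-1 under siNC (6.47% of all genes), for 17 with sgKEAP1-2 under siNC (9.28%), for 13 with sgKEAP1-1 under siTFEB/siTFE3 (8.11%) and for 19 with sgKEAP1-2 under siTFEB/siTFE3 (9.24%). Of the 17, 15 were mitotic, and of the 19, 11 were mitotic.

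**Figure D2:**
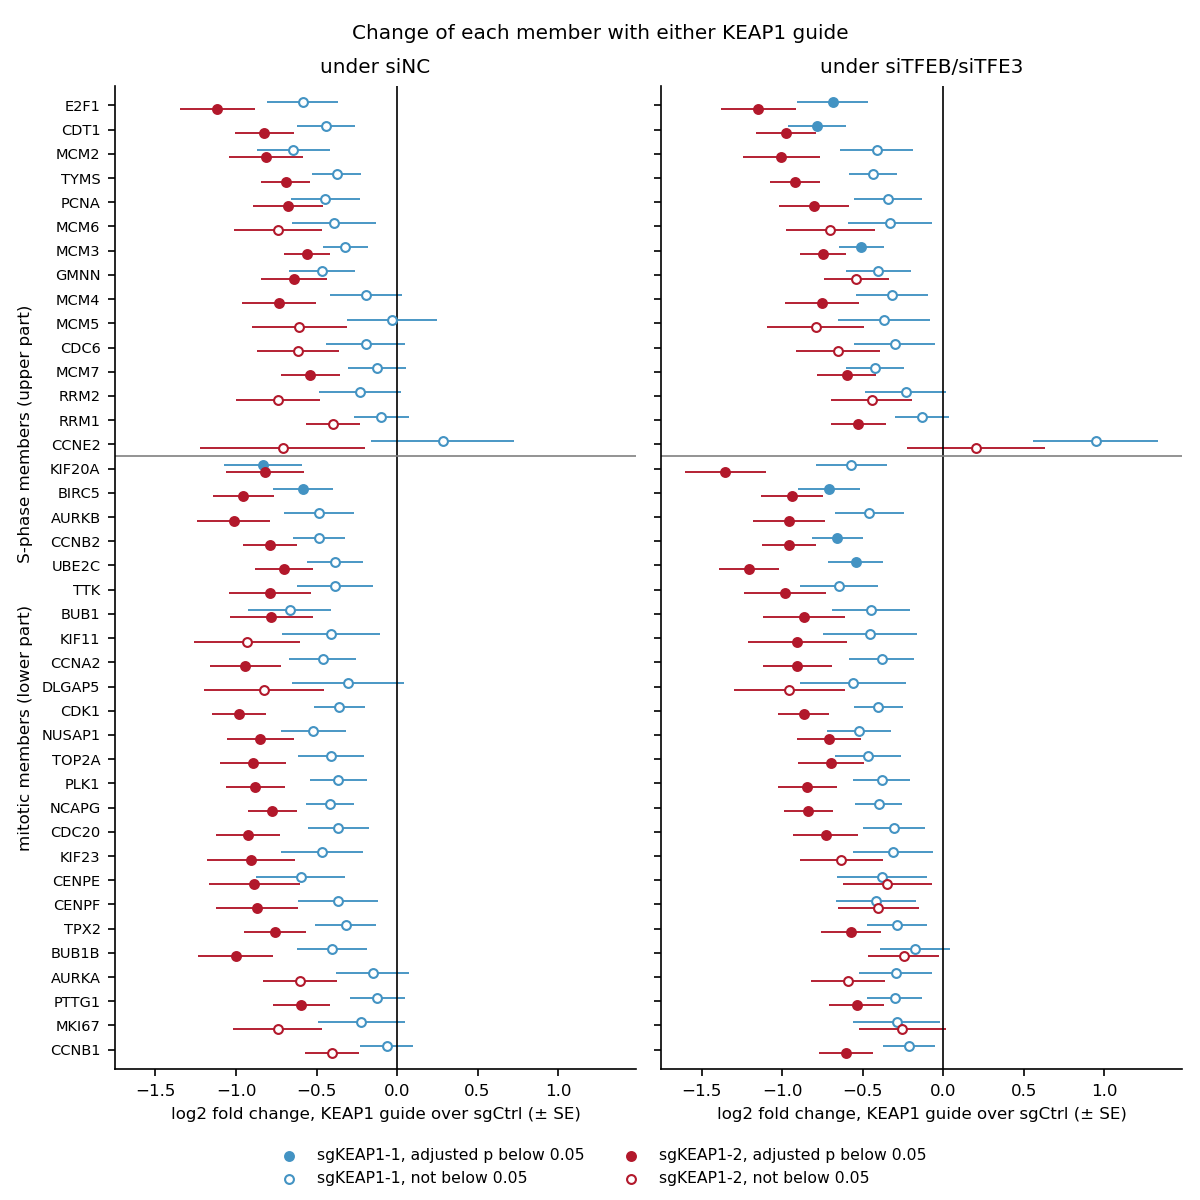
Log2 fold change (± SE) of each member against the sgCtrl group with the same siRNA, for sgKEAP1-1 (blue) and sgKEAP1-2 (red), under siNC (left) and siTFEB/siTFE3 (right), with filled points at an adjusted p below 0.05. Nearly all points lie left of 0, the red points are mostly further left than the blue, and CCNE2 is the member with points on the right.

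Licensing of replication origins loads the MCM helicase on DNA before S phase. CDT1 (Entrez ID 81620), a loading factor, had the smallest adjusted p of the S-phase members (5.09e-06; log2 fold change -0.76 ± 0.11, SE). Under siNC its libraries numbered 1 to 4 were at 108, 84.5, 87.0 and 74.3 CPM with sgCtrl, 97.5, 55.9, 64.1 and 49.2 with sgKEAP1-1 and 58.7, 40.1, 47.7 and 53.2 with sgKEAP1-2. Under siTFEB/siTFE3 they were at 111, 73.4, 89.0 and 83.2 with sgCtrl, 55.5, 46.3, 43.3 and 60.4 with sgKEAP1-1 and 53.5, 52.9, 34.5 and 41.9 with sgKEAP1-2. The sgCtrl libraries were above all KEAP1-guide libraries of the same siRNA but for the sgKEAP1-1 library numbered 1 under siNC. CDC6, the partner of CDT1 in loading, fell by 0.44 and GMNN, which encodes the CDT1 inhibitor geminin, fell by 0.51 on the log2 scale. For CDC6 the fall was called in the average alone, and not without siNC sgCtrl 1 (-0.34), siTFEB/siTFE3 sgCtrl 1 (-0.37) or siTFEB/siTFE3 sgCtrl 3 (-0.42).

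Of the MCM2 to MCM7 helicase subunits, 5 of 6 were called as lower in the average, with MCM5 the exception. MCM3 (Entrez ID 4172; -0.53 ± 0.09, adjusted p = 2.10e-05) was at 360, 272, 290 and 227 CPM in the siNC sgCtrl libraries, 294, 192, 227 and 206 with sgKEAP1-1 and 236, 161, 170 and 213 with sgKEAP1-2. With siTFEB/siTFE3 its libraries were at 326, 283, 311 and 248 with sgCtrl, 226, 202, 193 and 198 with sgKEAP1-1 and 197, 171, 159 and 169 with sgKEAP1-2. Under siTFEB/siTFE3 no KEAP1-guide library of MCM3 reached the lowest sgCtrl library, whereas under siNC the ranges overlapped. MCM2 (Entrez ID 4171; -0.72 ± 0.14, adjusted p = 0.000223) was at 195, 117, 156 and 93.2 CPM in the siNC sgCtrl libraries, 75.1, 81.4, 112 and 80.3 with sgKEAP1-1 and 112, 50.1, 64.4 and 96.4 with sgKEAP1-2. Under siTFEB/siTFE3, MCM2 libraries were at 146, 110, 117 and 96.1 with sgCtrl, 128, 76.4, 72.5 and 81.7 with sgKEAP1-1 and 46.1, 68.2, 50.2 and 68.6 with sgKEAP1-2. The sgKEAP1-2 libraries were separate from sgCtrl under siTFEB/siTFE3, and the siNC ranges overlapped. The other MCM genes fell by 0.54 (MCM6), 0.50 (MCM4) and 0.42 (MCM7), and MCM6 was called in the average alone.

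Nucleotide supply and the replication clamp showed the same direction. TYMS (Entrez ID 7298), the thymidylate synthase, fell by 0.61 on the log2 scale (SE 0.0921, adjusted p = 9.80e-06). Its siNC libraries were at 222, 159, 196 and 143 CPM with sgCtrl, 138, 140, 139 and 129 with sgKEAP1-1 and 144, 89.1, 91.5 and 124 with sgKEAP1-2. Its siTFEB/siTFE3 libraries were at 230, 191, 197 and 147 with sgCtrl, 162, 133, 127 and 139 with sgKEAP1-1 and 93.4, 103, 88.4 and 115 with sgKEAP1-2. The sgCtrl libraries numbered 4 were within or near the range of the KEAP1-guide libraries, and the others lay above it. RRM1 and RRM2, subunits of ribonucleotide reductase, had smaller falls of 0.29 and 0.41. The call of RRM2 was lost with edgeR, with DESeq2, without the libraries numbered 1 and in 15 of the 24 fits that left out 1 library. That of RRM1 was lost without 6 single libraries (siNC sgCtrl 1 or 3, siNC sgKEAP1-2 2, siTFEB/siTFE3 sgCtrl 1 or 3 and siTFEB/siTFE3 sgKEAP1-2 3), with values from -0.28 to -0.21. PCNA (Entrez ID 5111), the sliding clamp of the replicative polymerases, fell by 0.57 (SE 0.13, adjusted p = 0.00129). For PCNA the siNC values were 281, 165, 224 and 169 CPM with sgCtrl, 136, 145, 172 and 149 with sgKEAP1-1 and 214, 84.8, 109 and 137 with sgKEAP1-2. The siTFEB/siTFE3 values of PCNA were 319, 199, 244 and 178 with sgCtrl, 238, 176, 178 and 145 with sgKEAP1-1 and 133, 143, 109 and 145 with sgKEAP1-2. Only the sgKEAP1-2 group under siTFEB/siTFE3 was separate from its controls for PCNA.

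E2F1 (Entrez ID 1869), the activator of the G1/S programme, had the largest S-phase fall (-0.88 ± 0.13, adjusted p = 9.84e-06). In siNC cells it was at 84.6, 52.4, 56.0 and 58.7 CPM with sgCtrl, 54.9, 36.96, 52.5 and 27.0 with sgKEAP1-1 and 47.2, 25.3, 19.2 and 30.2 with sgKEAP1-2. In siTFEB/siTFE3 cells it was at 84.2, 54.6, 53.3 and 71.9 with sgCtrl, 48.1, 36.7, 36.4 and 40.5 with sgKEAP1-1 and 29.7, 34.9, 23.2 and 30.1 with sgKEAP1-2. Every sgKEAP1-2 library of E2F1 was below every sgCtrl library of its siRNA. CCNE2, a cyclin of the G1/S transition, had 1 to 18 reads per library, and its log2 fold changes ranged from -0.71 with sgKEAP1-2 under siNC to 0.95 with sgKEAP1-1 under siTFEB/siTFE3, none of them called. What change of CCNE2 could have been detected at these counts was not tested.

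Cyclin B and its kinase CDK1 drive entry into mitosis, and the anaphase-promoting complex ends it. All 7 members of this kind were called as lower in the average, with a median of -0.65. CCNB2 (Entrez ID 9133), a B-type cyclin, had the smallest adjusted p of all members (1.74e-06; -0.72 ± 0.10, SE). It was at 68.3, 52.1, 51.4 and 50.0 CPM in the siNC sgCtrl libraries, 44.9, 36.7, 43.2 and 33.3 with sgKEAP1-1 and 37.6, 24.8, 29.2 and 37.5 with sgKEAP1-2. The siTFEB/siTFE3 libraries of CCNB2 were at 65.8, 59.6, 65.3 and 48.1 with sgCtrl, 48.3, 42.3, 33.2 and 29.9 with sgKEAP1-1 and 25.7, 27.8, 34.5 and 33.6 with sgKEAP1-2. Among the CCNB2 libraries, 1 with sgKEAP1-1 under siTFEB/siTFE3 reached its sgCtrl range.

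CDK1 (Entrez ID 983) fell by 0.65 on the log2 scale (SE 0.0951, adjusted p = 5.41e-06). Its siNC values were 82.8, 65.6, 72.1 and 66.7 CPM with sgCtrl, 56.5, 59.2, 57.8 and 50.1 with sgKEAP1-1 and 50.3, 25.03, 35.9 and 37.97 with sgKEAP1-2. Its siTFEB/siTFE3 values were 93.7, 78.5, 79.9 and 74.1 with sgCtrl, 74.0, 58.3, 60.7 and 54.7 with sgKEAP1-1 and 63.7, 43.3, 35.4 and 42.2 with sgKEAP1-2. CDK1 was the one member whose KEAP1-guide libraries all lay below the sgCtrl libraries in each of the 4 comparisons. UBE2C (Entrez ID 11065), the ubiquitin-conjugating enzyme of the anaphase-promoting complex, fell by 0.71 (SE 0.106, adjusted p = 8.17e-06). UBE2C was at 67.8, 50.1, 66.3 and 47.4 CPM in siNC sgCtrl libraries, 51.4, 39.2, 43.0 and 41.7 with sgKEAP1-1 and 43.8, 29.3, 27.3 and 43.3 with sgKEAP1-2. With siTFEB/siTFE3 the values of UBE2C were 79.0, 67.6, 59.5 and 50.5 with sgCtrl, 50.0, 46.6, 40.9 and 37.4 with sgKEAP1-1 and 27.5, 35.9, 20.5 and 28.03 with sgKEAP1-2. The KEAP1-guide libraries of UBE2C overlapped sgCtrl in 1 library alone, sgKEAP1-1 numbered 1 under siNC. CCNA2, cyclin A2, fell by 0.67, CDC20, the anaphase activator, fell by 0.58, PTTG1, which encodes securin, fell by 0.39 and CCNB1, cyclin B1, fell by 0.32, a call lost without siTFEB/siTFE3 sgCtrl 1 (-0.26).

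All 7 mitotic kinases and spindle checkpoint members were called as lower in the average, with a median of -0.69. BIRC5 (Entrez ID 332), the survivin subunit of the chromosomal passenger complex, fell by 0.80 (SE 0.115, adjusted p = 4.63e-06). Its siNC libraries were at 225, 158, 155 and 146 CPM with sgCtrl, 146, 95.9, 106 and 106 with sgKEAP1-1 and 120, 69.7, 73.4 and 92.3 with sgKEAP1-2. Its libraries with siTFEB/siTFE3 were at 157, 137, 135 and 133 with sgCtrl, 99.4, 76.7, 89.6 and 80.4 with sgKEAP1-1 and 119, 73.3, 50.2 and 68.8 with sgKEAP1-2. The groups of BIRC5 did not overlap but for the sgKEAP1-1 library numbered 1 under siNC. The kinases AURKB and PLK1 fell by 0.73 and 0.62, and the checkpoint kinases TTK and BUB1 fell by 0.70 and 0.69. BUB1B, which encodes the checkpoint protein BubR1, fell by 0.46 and AURKA, the spindle pole kinase, fell by 0.41. The call of AURKA was lost without siNC sgCtrl 1 (-0.33) or siTFEB/siTFE3 sgCtrl 1 (-0.35). The value of BUB1B was -1.003 with sgKEAP1-2 under siNC, where it was called, and -0.25 with sgKEAP1-2 under siTFEB/siTFE3, where it was not.

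Kinetochore and spindle genes were called as lower in 8 of 8. The call of DLGAP5 was lost with edgeR (-0.58) and without siNC sgCtrl 1 (-0.54), and that of CENPE with DESeq2 (-0.49). KIF20A (Entrez ID 10112), a kinesin of the spindle midzone, had the largest fall of the members (adjusted p = 1.57e-05). KIF20A was at 36.8, 29.4, 29.6 and 19.8 CPM in siNC sgCtrl libraries, 9.83, 14.7, 22.4 and 18.6 with sgKEAP1-1 and 20.3, 12.4, 14.9 and 17.0 with sgKEAP1-2. With siTFEB/siTFE3, KIF20A was at 40.5, 30.7, 36.8 and 24.3 with sgCtrl, 25.1, 22.6, 27.8 and 15.1 with sgKEAP1-1 and 9.59, 12.6, 13.6 and 14.6 with sgKEAP1-2. The sgCtrl libraries numbered 4 were lower than the other sgCtrl libraries and overlapped the KEAP1-guide libraries in 3 of the 4 comparisons. The motor KIF11 fell by 0.67, DLGAP5 by 0.66, the spindle factor NUSAP1 by 0.65 and KIF23 by 0.58. CENPE, the kinetochore motor, CENPF and TPX2, the activator of Aurora A, fell by 0.55, 0.51 and 0.48.

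Among genes of chromosome structure, NCAPG (Entrez ID 64151), a condensin subunit, fell by 0.61 (SE 0.0904, adjusted p = 7.19e-06). NCAPG was at 128, 95.7, 102 and 84.7 CPM with siNC and sgCtrl, 97.0, 70.9, 77.2 and 62.2 with sgKEAP1-1 and 72.6, 52.5, 53.3 and 60.8 with sgKEAP1-2. With siTFEB/siTFE3, NCAPG was at 122, 102, 114 and 94.6 with sgCtrl, 87.3, 77.4, 83.5 and 78.6 with sgKEAP1-1 and 73.6, 70.4, 46.8 and 55.6 with sgKEAP1-2. The single NCAPG overlap was again the sgKEAP1-1 library numbered 1 under siNC. TOP2A, the topoisomerase that untangles chromosomes, fell by 0.62. MKI67, which encodes the proliferation marker Ki-67, was at 132 to 256 CPM in the siNC sgCtrl libraries, and its 4 sgKEAP1-2 libraries under siTFEB/siTFE3 ranged from 83.4 to 262 CPM. The strand setting of the counting was not stated, and the last exons of CCNA2, CCNE2, KIF20A, MCM2, NCAPG, PLK1, RRM1 and TYMS overlap a gene on the opposite strand in the GENCODE annotation of GRCh37. On the same strand, BUB1B overlaps the readthrough gene BUB1B-PAK6 and NUSAP1 overlaps another annotated gene, which strand could not separate. Reads of opposite-strand partners cannot be told apart without strand, and PTTG1 has near-identical copies elsewhere in the genome.

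Member values lay lower with sgKEAP1-2 than with sgKEAP1-1. In the main limma-voom fit, of all 24 libraries without weights or library number, no member passed the test of that difference. Other settings called some. The log2 difference between the guides, averaged over the siRNAs, was negative for 40 of 40 members, as it was for 45.9% of all genes, with a median of -0.37. The main fit called 0 members (0.117% of all genes were), and 28 had an unadjusted p below 0.05 (8.53% of all genes). The smallest adjusted p of that fit was 0.0667, of CDK1 (-0.54). DESeq2 called 2 members, CDK1 and PLK1, and the quasi-likelihood test of edgeR called 0. Quality weights called 3 (CCNB1, CDK1 and NCAPG), and 12 were called without the libraries numbered 1, where lower calls over all genes rose from 8 to 57. With library number added to the fit, CCNA2, CDK1, PLK1, AURKA, AURKB, NCAPG and MCM4 were called, and lower calls over all genes were 38. CDK1 alone was called without siNC sgKEAP1-1 4, siNC sgKEAP1-2 1 or siTFEB/siTFE3 sgKEAP1-2 1, where lower calls over all genes were 10, 13 and 9. The fall was larger with sgKEAP1-2 in 39 of 40 members under siNC and in 37 of 40 under siTFEB/siTFE3. Within numbers, sgKEAP1-2 was below sgKEAP1-1 in all 4 for 19 members under siNC and 17 under siTFEB/siTFE3. In number 1 under siTFEB/siTFE3 the mitotic members did not share the direction, with 10 of 25 lower and a median difference of 0.0796. KEAP1 RNA differed the other way and was higher with sgKEAP1-2 than with sgKEAP1-1 (log2 difference 0.50, adjusted p = 0.00145), and the part of this in the member difference was not tested.

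Knockdown of TFEB and TFE3 gave no called member in the main limma-voom fit, and BIRC5 alone under some other settings. With siTFEB/siTFE3 against siNC, 0 of 40 were called in sgCtrl cells (0.0179% of all genes were), 0 in sgKEAP1-1 cells (0.0897%), 0 in sgKEAP1-2 cells (0.359%) and 0 in the average over guides (2.33%). Unadjusted p-values were below 0.05 for 0 members in sgCtrl cells, 1 in sgKEAP1-1 cells (CCNE2, 0.78) and 2 in sgKEAP1-2 cells (CCNE2, 1.04, and BUB1B, 0.55). In the average the median was 0.041 and the values ran from -0.30 (BIRC5) to 0.65 (CCNE2), with 3 members at an unadjusted p below 0.05, against 13.0% of all genes. These 3 were BIRC5, CDK1 (0.21) and CCNE2, and edgeR and DESeq2 called 0 in each of these comparisons. BIRC5 was called as lower with quality weights (-0.29, limma adjusted p = 0.0380) and with library number added to the fit (-0.29, limma adjusted p = 0.0196). It was also called without the libraries numbered 1 (-0.27, limma adjusted p = 0.0193). The same held (-0.36, limma adjusted p = 0.0369) once the siTFEB/siTFE3 sgKEAP1-2 library numbered 1 was left out.

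Whether the KEAP1 effect differed between the siRNAs was tested as an interaction, averaged over the guides. It called 0 members (0.00% of all genes were called), 0 members had an unadjusted p below 0.05, against 3.13% of all genes, and edgeR and DESeq2 also called 0. The interaction values ran from -0.33 to 0.79 with a median of -0.01, and their SE of 0.172 to 0.548 limits the size of a difference that could have been seen.

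The mean log2 CPM over the members followed the same order in both lists. For the S-phase members it was 6.45 ± 0.35 (SD, n = 4) in the siNC sgCtrl group, 6.16 ± 0.25 with sgKEAP1-1 and 5.77 ± 0.40 with sgKEAP1-2. Under siTFEB/siTFE3 it was 6.46 ± 0.21, 6.14 ± 0.18 and 5.78 ± 0.28 in the same order of guides. For the mitotic members the siNC groups were at 6.35 ± 0.29, 5.94 ± 0.22 and 5.53 ± 0.35 and the siTFEB/siTFE3 groups at 6.38 ± 0.19, 5.97 ± 0.13 and 5.66 ± 0.43. The ranges of neighbouring groups overlapped or touched, except that the S-phase level under siTFEB/siTFE3 was 6.02 to 6.41 with sgKEAP1-1 and 5.41 to 6.00 with sgKEAP1-2. As a mean over chosen genes this level was given no test.

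**Figure D3:**
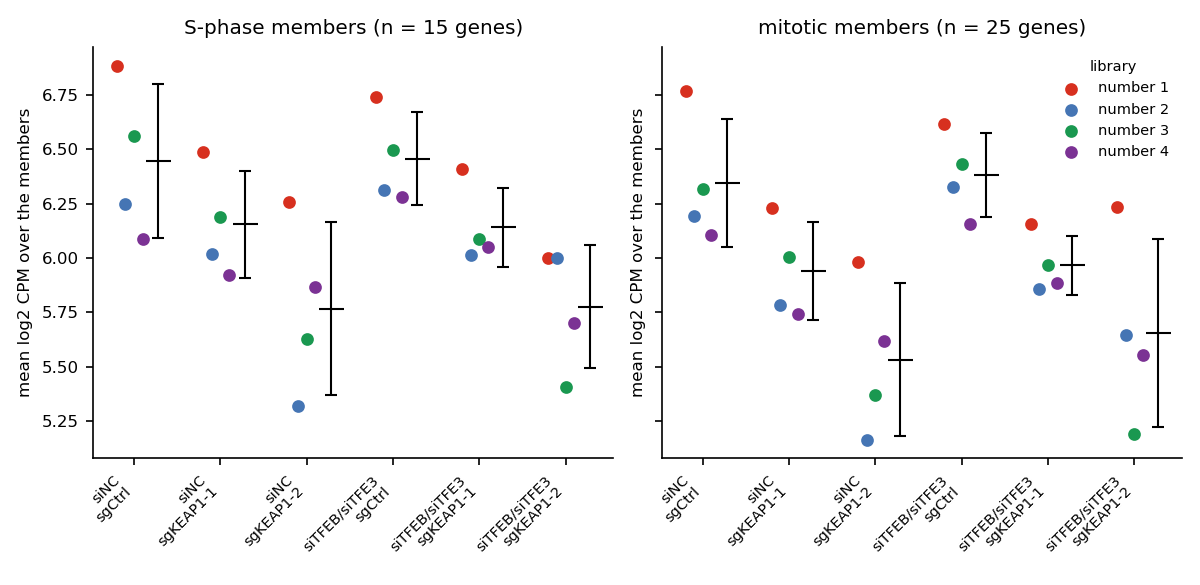
Mean log2 CPM over the 15 S-phase members (left) and 25 mitotic members (right) in each library, by group, coloured by library number, with the group mean ± SD in black (n = 4). The mean falls from sgCtrl to sgKEAP1-1 to sgKEAP1-2 under each siRNA, and the library numbered 1 is the highest of its group in all but the S-phase level of the siTFEB/siTFE3 sgKEAP1-2 group, where number 2 stood at 6.002 and number 1 at 5.999.

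Within groups the libraries were not alike. Same-numbered libraries of the 6 groups carry a shared prefix in their labels, whose meaning is not given. With the library number added to the fit, 22 of 40 members differed between the 4 numbers (moderated F test of limma, 4.71% of all genes), 8 of them S-phase and 14 mitotic, and all 22 were highest in number 1. The mean level was highest in number 1 for 39 of 40 members, against 35.5% of all genes. Of the hepatocyte markers, AFP differed between the numbers (adjusted p = 0.00545) and was lowest in number 1, by 0.621 on the log2 scale, and 8 of 9 did not pass the test. AFP was at 4830 CPM in the siNC sgCtrl library numbered 1 and at 7451 to 9100 in the other 3. LYZ was also lowest in number 1 (by 0.48, adjusted p = 0.00321), and the part of these markers in the member result was not tested. The median excess of number 1 over the mean of the other 3 was 0.444 on the log2 scale, with 0.422 for the S-phase and 0.506 for the mitotic members. CDC6 had the smallest adjusted p (4.45e-05, an excess of 0.733), followed by AURKA (0.000121, 0.655) and MCM4 (0.00124, 0.635). DLGAP5, a spindle assembly factor, had the largest excess, 0.85. The number of members called was 11 without the siNC sgCtrl library numbered 1 and also 11 without the siNC sgKEAP1-2 library numbered 1.

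The KEAP1 differences were present within numbers too. Each KEAP1-guide library was set against the sgCtrl library of the same siRNA and number, and 29 of 40 members were lower in all 4 numbers with sgKEAP1-1 under siNC (15.3% of all genes), 36 with sgKEAP1-2 under siNC (19.1%), 33 with sgKEAP1-1 under siTFEB/siTFE3 (17.1%) and 28 with sgKEAP1-2 under siTFEB/siTFE3 (17.1%). The median difference of sgKEAP1-2 from sgCtrl over the members ranged among the numbers from -0.428 to -0.973 under siNC and from -0.537 to -1.20 under siTFEB/siTFE3. For sgKEAP1-1 it ranged from -0.283 to -0.444 and from -0.251 to -0.439. The smallest differences of sgKEAP1-1 were those of number 4 under both siRNAs.

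**Figure D4:**
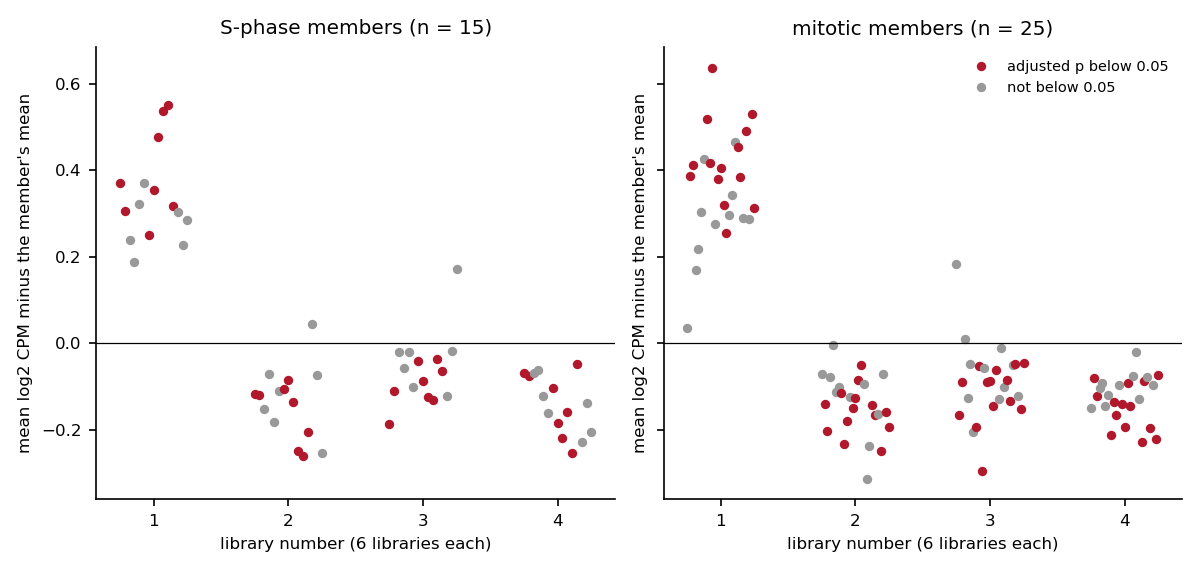
Mean log2 CPM of each member over the 6 libraries of a number, minus the member's mean over the 4 numbers, for S-phase (left) and mitotic members (right), with red points for members whose adjusted p of the F test was below 0.05. All points at number 1 are above 0, with DLGAP5 the largest excess of number 1 over the rest (0.85).

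The siTFEB/siTFE3 sgKEAP1-2 library numbered 1 stood apart in its balance of mitotic and S-phase members. The S-phase level minus the mitotic level was -0.236 in that library and 0.149 to 0.356 in the other 3 of its group. Of its 25 mitotic members 20 were above all 3 others, with a median excess of 0.893 on the log2 scale, whereas the 15 S-phase members had a median excess of 0.31 and 2 were below all 3 others. CENPF was at 359 CPM against 97.2 to 145, CENPE at 144 against 34.1 to 48.2 and TOP2A at 1231 against 532 to 649. That library also had the fewest reads of the 24 (3527000), the largest share of reads without a gene ID (2.57%, against 1.35 to 2.05% in the others) and the lowest TMM factor (0.947). Genes outside the list stood high in it too, such as CDC27 at 309 CPM against 139 to 164 and CDK6 at 511 against 247 to 301, both named after their values were seen. The part of these in the result was not tested. MCM2 was lower there than in the other 3, at 46.1 against 50.2 to 68.6 CPM. Without that library, 34 members rather than 27 were called as lower with sgKEAP1-2 under siTFEB/siTFE3. Lower calls over all genes in that comparison were then 1051 of 11298, against 1069 of 11152.

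Genes upstream of the members were measured as further lists, which were chosen with earlier results of these data known. Of 15 CDK inhibitors and p53 targets tested, 7 were higher and 3 lower with the KEAP1 guides on average, with a list median of 0.18. Over all genes 15.2% were called as higher and 15.6% as lower, so the number of lower genes is near that share. With siTFEB/siTFE3 against siNC, averaged over the guides, 2 of these 15 were called as higher and 0 as lower (2.33% of all genes were called). CDKN1A, which encodes the CDK inhibitor p21, rose by 0.61 (SE 0.0783, adjusted p = 8.65e-07). CDKN1A was at 77.3 ± 10.1 CPM (SD, n = 4) with siNC and sgCtrl, 123 ± 9.03 with sgKEAP1-1 and 115 ± 17.5 with sgKEAP1-2. CDKN2A, the gene of p16 and ARF, rose by 1.87, from 19.0 ± 2.77 CPM in siNC sgCtrl libraries to 55.0 ± 21.0 with sgKEAP1-1 and 64.0 ± 5.02 with sgKEAP1-2. The siNC sgKEAP1-1 library numbered 1 was at 24.2 CPM for CDKN2A, against 60.6 to 70.9 in the others of its group. CDKN2B, the gene of p15 and the neighbour of CDKN2A, rose by 1.88 from 6.14 ± 1.66 to 17.2 ± 2.92 and 17.4 ± 5.18 CPM. The p53 targets GADD45A (0.63), MDM2 (0.29), TP53INP1 (0.28) and ZMAT3 (0.18) rose, while the p53 targets BTG2 (-0.34) and SESN1 (-0.30) and the CDK inhibitor CDKN2C (-1.34), the gene of p18, fell. The inhibitors of this list thus did not move in 1 direction.

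Of 29 genes of G1 cyclins, the RB and E2F families, MuvB and MYB, 14 were lower and 4 higher, with a median of -0.41, beside 15.6% and 15.2% of all genes, so the number of higher genes is near the share of all genes. The 4 included all 3 D-type cyclins, the partners of CDK4 and CDK6 in G1, which rose: CCND1 by 0.63, CCND3 by 1.31 and CCND2 by 1.45. CCND2 was at 4.48 to 10.4 CPM in the siNC sgCtrl libraries and at 12.1 to 21.3 in those with siTFEB/siTFE3. Its siTFEB/siTFE3 sgKEAP1-2 library numbered 2 was at 148 CPM, against 27.9 to 53.4 in the others of that group. The last exons of CCND1, FOXM1, E2F5, E2F8, CDK2, CDK4, RBL2 and RBBP4 overlap a gene on the opposite strand. That of MDM2, from the list before, overlaps genes on both strands. CCND1 rose from 261 ± 11.6 CPM in siNC sgCtrl libraries to 382 ± 16.6 with sgKEAP1-1 and 367 ± 9.36 with sgKEAP1-2, without overlap. The E2F activator E2F3 rose by 0.24. Factors that drive the next steps were lower: CDK2 fell by 0.51, CCNE1 by 0.44, the phosphatase CDC25A by 0.74, the ligase subunit SKP2 by 0.81, MYBL2, the gene of B-MYB, by 0.51 and FOXM1 by 0.61. FOXM1 was at 51.9 ± 14.2 CPM with siNC and sgCtrl, 38.5 ± 6.15 with sgKEAP1-1 and 31.9 ± 11.1 with sgKEAP1-2. In the averaged knockdown comparison, 2 of the 29 were called as higher and 0 as lower, beside 2.33% of all genes called.

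Further genes of the same machinery, in lists chosen in the same way, were called mostly with sgKEAP1-2 and in the average. Of 50 other DNA replication genes tested, 35 were lower and 0 higher in the average (15.6% and 15.2% of all genes), with a median of -0.47, among them the maintenance methylation factor UHRF1 (-1.04), the polymerase subunit POLD1 (-0.87), the origin recognition subunit ORC6 (-0.63) and the dUTPase DUT (-0.50). Of 62 other mitotic genes, 46 were lower and 0 higher, with a median of -0.56, among them the CDK1 phosphatase CDC25C (-0.98), the spindle genes PSRC1 (-1.04) and CKAP2L (-0.91) and the centromeric histone CENPA (-0.70). With sgKEAP1-2 under siNC, 23 of the 50 and 41 of the 62 were called as lower, beside 7.14% of all genes. With sgKEAP1-1 under siNC 2 and 6 were, beside 4.91% of all genes, so the replication genes were near that share. The averaged knockdown comparison called 0 of the 50 and 1 of the 62, the latter as lower, beside 2.33% of all genes.

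**Figure D5:**
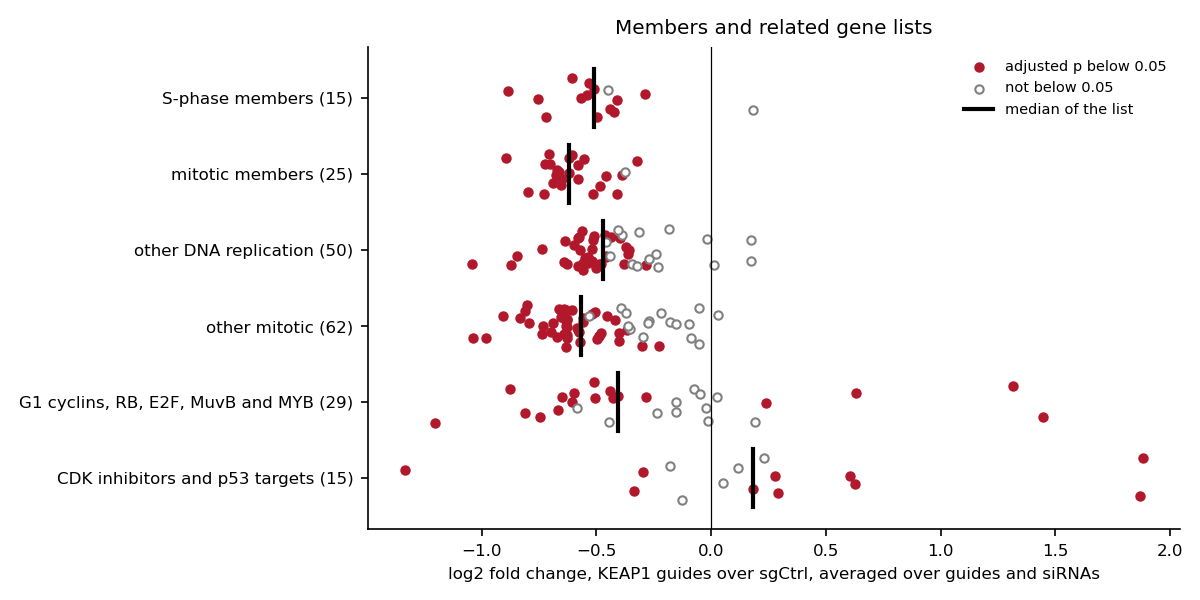
Log2 fold change of the members and of 4 related lists (rows, number of genes tested in brackets) with the KEAP1 guides, averaged over guides and siRNAs, with red points at an adjusted p below 0.05 and a black bar at the list median. The medians of the first 4 lists lie between -0.62 and -0.47, and called points on both sides of 0 are seen for the G1 list and for the CDK inhibitors and p53 targets.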

How the data were processed

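QuantSeq 3′ RNA-seq counts of 24 HepG2 libraries were used. The authors deposited whole-number counts per gene in 1 table, whose smallest row total was 15 reads. The submitters' processing notes name cutadapt 1.16, STAR 2.7.5b, featureCounts 1.6.3 and limma 3.40.6. The study's methods name hg19 and the notes hg38, and the strand setting of counting was not given in the sources used here, so no coordinates of genes were taken from the table.

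Rows without a gene ID (1414 of 13446, 1.35 to 2.57% of reads) were left out, and rows sharing an ID or identical counts were merged, leaving 11927 features. Groups came from the sample labels. In R 4.3.3, the voom method of limma 3.58.1 was run on counts prepared in edgeR 4.0.16, with filterByExpr, TMM factors and 1 fit of 6 group means, two-sided, with Benjamini-Hochberg adjustment over 11152 genes. CPM used TMM-scaled library sizes and log2 CPM a prior count of 2. Alternatives were edgeR's quasi-likelihood test, DESeq2 1.42.0, other scaling factors, no filter, quality weights, a replicate block, libraries numbered 1 left out and each library left out. The fit was also run on simulated counts, drawn without differences between library numbers, so that run does not test p-values under such differences. The members and lists were chosen with earlier results of these data known, and no measured value was a criterion for the members.

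Values in every library were given for the 6 S-phase and 6 mitotic members with the smallest p in the averaged KEAP1 comparison. Every other member that passed the threshold in a KEAP1, knockdown or guide comparison was named, together with MKI67, TOP2A, CCNB1, CDK1, PCNA, MCM2, RRM2, CDC6, E2F1 and GMNN. MCM5 and CCNE2 were named after their values were seen, as exceptions. Any gene of the G1 and CDK inhibitor lists could be named, and the 4 with the smallest p of the other replication and mitotic lists were. Depth was 3527000 to 4600951 reads per library, and low counts, such as those of CCNE2, give less precise values.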

Additional observations from a re-analysis of the deposited data

Results flagged for a closer look

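In 4 of 84 groups of 4 libraries examined, 1 library of a member lay far from the other 3 by Dixon's ratio, and chance gives about 1 in 20 groups. BIRC5 stood at 225 CPM in the siNC sgCtrl library numbered 1, against 146 to 158 in the others. It also stood at 157 CPM in the siTFEB/siTFE3 sgCtrl library numbered 1, against 133 to 137. CCNB2 was at 68.3 CPM in the siNC sgCtrl library numbered 1, against 50.0 to 52.1. MCM2 was at 128 CPM in the siTFEB/siTFE3 sgKEAP1-1 library numbered 1, against 72.5 to 81.7. All 4 were libraries numbered 1, and the cause was not tested.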

How the results depend on the processing

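No direction reversed under any alternative run, and the averaged KEAP1 count, the sgKEAP1-2 counts, the single-guide knockdown counts and the interaction count stayed within 1.5 times under every change of tool, scaling or filter. The sgKEAP1-1 count under siNC (2) was 1 with edgeR, 4 with DESeq2, 15 with quality weights, 15 with the replicate block and 12 without the libraries numbered 1, where lower calls over all genes went from 548 to 527, 584, 820, 668 and 768. The sgKEAP1-1 count under siTFEB/siTFE3 (6) was 15, 12 and 17 under the last 3 of these, with 536 lower calls over all genes going to 941, 644 and 821. The averaged knockdown count (0) was 1 under each of the last 3, BIRC5, with 155 lower calls over all genes going to 335, 225 and 297. The guide count (0, with 8 lower calls over all genes) was 2 with DESeq2, 3 with quality weights, 7 with the replicate block (CCNA2, CDK1, PLK1, AURKA, AURKB, NCAPG and MCM4) and 12 without the libraries numbered 1, with 29, 25, 38 and 57 lower calls over all genes. With single libraries left out, counts ranged from 0 to 10 and 17 to 36 under siNC (sgKEAP1-1 and sgKEAP1-2), from 3 to 9 and 18 to 34 under siTFEB/siTFE3, from 32 to 39 in the average, from 0 to 1 for the averaged knockdown and the guide difference, and from 11 to 24 for library number. Lower calls over all genes ranged from 380 to 650 and 522 to 931 under siNC, and from 339 to 625 and 858 to 1188 under siTFEB/siTFE3. They ranged from 1607 to 1917 in the average, from 123 to 211 for the averaged knockdown and from 4 to 13 for the guide difference. Library number was left out of the main fit, and libraries were not treated as paired. Of 60 same-numbered pairs, 20 correlated above 0.1 in their deviations from group means (-0.163 to 0.43). Their median was 0.0462, against -0.0246 for pairs of unlike number. Yet 15 of 24 libraries correlated best with their own number, and 22 of 40 members differed between numbers. Leaving the number out puts such shared variation into the spread that the p-values measure. MKI67 and MCM5 passed the averaged threshold under quality weights, the block and without the libraries numbered 1; RRM2 missed it under edgeR, DESeq2 and without those libraries, DLGAP5 under edgeR and CENPE under DESeq2. The causes were not tested. Counts of a few reads (CCNE2) and 4 libraries per group limit precision.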
